A study of Mus musculus with 80 samples.

Results

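Doc2g, Cdhr1, Tbx21, Eomes and Sp8 are markers of neurons of the olfactory bulb, and they were read here in RNA-seq libraries of mouse brain regions that were not labelled as bulb. These 5 genes, of 27179 in the count table, were chosen by their levels and joint spread in the cortex libraries, with Doc2g and Cdhr1 named as leading the cortex genes. Their level in cortex relative to the other regions, and their spread over the cortex libraries, are therefore given as descriptions with no test.

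The study compared C57BL/6 female mice (C57BL/6J in its methods) that had raised 1 litter (primiparous) with virgin females, 8 animals of each state, to ask which expression differences outlast maternal care. The labels place tissue collection 3 weeks after weaning, the methods of the study give a longer interval, and males were placed with females of 8 weeks of age. Virgin females were not housed with males, so mating, pregnancy, birth and pup care cannot be told apart in the primiparous group. Neocortex (called cortex here), amygdala, hippocampus, hypothalamus and cerebellum came from the same 16 animals, 1 animal per library, from the left side except for the whole hypothalamus. Of 80 libraries, 77 have columns: 16 of cortex, 16 of hypothalamus, and 15 each of amygdala, hippocampus and cerebellum, each lacking 1 virgin animal. The libraries of a region were pooled for sequencing, so region and sequencing pool cannot be told apart. Cortex libraries held between 8678050 and 31391961 assigned reads.

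The olfactory bulb receives the axons of olfactory sensory neurons, and its mitral and tufted cells carry the signal on to the piriform cortex and other olfactory areas. Granule and periglomerular cells are its local inhibitory neurons, and they are renewed in adult life by neuroblasts that migrate from the lateral ventricle. Tbx21 and Eomes encode T-box transcription factors of mitral and tufted cells. Cdhr1 encodes a protocadherin-related membrane protein of those cells and of photoreceptors, Doc2g a member of the double C2 protein family, and Sp8 a zinc finger factor of bulb interneurons. In bulk tissue, more cells of a type and more RNA per cell cannot be told apart.

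In cortex, 3 libraries stood apart from the other 13 in all 5 genes and are named before the results. They came from primiparous animals 413 and 425 and from virgin animal 405. The library of animal 405 was the shallowest of the 16, with 8678050 reads, whereas those of animals 413 and 425 held 20565746 and 17041861 reads, with 8 and 6 cortex libraries below them. All 3 animals belong to the 9 of 16 with a number of 3 digits, and none of the 7 animals with a number of 4 digits was among them. Numbers of 3 digits belonged to 7 of 8 primiparous and 2 of 8 virgin animals, so number series and state largely coincide. What the numbering stands for was not stated. The cortex places, spreads, parity tests, counts of slopes called and likeness to Doc2g are given with and without them.

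Levels are given as CPM (counts per 1000000 assigned reads) and, between genes, as RPKM (CPM per kilobase of exon). Doc2g was the most abundant of the 5 in cortex, at a median of 25.3 RPKM over 16 libraries. Primiparous animals had 4.96 (animal 413), 58.3 (414), 107.8 (415), 128.1 (418), 108.8 (421), 5.93 (425), 168.8 (427) and 81.5 (4493) CPM. Virgin animals had 17.4 (405), 86.8 (409), 99.4 (4486), 55.0 (4487), 83.8 (4488), 37.1 (4489), 69.8 (4490) and 72.0 (4491) CPM. The lowest and the highest library of the region were both primiparous, and they differed 34.0-fold. Reads on Doc2g ran from 101 to 3449 per cortex library.

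Cdhr1 had a cortex median of 19.3 RPKM. Its primiparous values were 1.22 (413), 58.3 (414), 109.7 (415), 138.4 (418), 120.2 (421), 3.46 (425), 84.9 (427) and 64.3 (4493) CPM. Its virgin values were 11.98 (405), 99.8 (409), 82.6 (4486), 52.5 (4487), 116.8 (4488), 46.0 (4489), 92.6 (4490) and 95.5 (4491) CPM. The same 3 libraries were at the bottom, and the library of animal 413 had 1.31% of the median of the other 13 libraries, 92.6 CPM. For Doc2g that library had 5.92% of the corresponding median.

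Both T-box genes were lower in level, at cortex medians of 2.12 RPKM for Tbx21 and 6.07 RPKM for Eomes. In primiparous cortex Tbx21 had 0.292 (413), 4.94 (414), 7.34 (415), 9.11 (418), 8.14 (421), 0.411 (425), 9.15 (427) and 4.80 (4493) CPM. In virgin cortex it had 1.15 (405), 7.73 (409), 5.86 (4486), 4.20 (4487), 7.46 (4488), 3.79 (4489), 4.11 (4490) and 5.62 (4491) CPM. Only 6 reads of Tbx21 lay in the cortex library with fewest and 187 in that with most, so its low values rest on few reads. It passed the filter on low values, at least 5 CPM in at least 8 libraries, through exactly 8 cortex libraries. All 5 genes passed that filter, as did 13016 of the 27179 genes.

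Eomes in primiparous cortex had 0.486 (413), 16.2 (414), 29.4 (415), 32.1 (418), 29.9 (421), 0.293 (425), 27.1 (427) and 16.1 (4493) CPM. In virgin cortex it had 2.65 (405), 26.4 (409), 24.0 (4486), 12.6 (4487), 30.4 (4488), 9.24 (4489), 26.8 (4490) and 27.1 (4491) CPM. Its 5 reads in the library of animal 425 compare with 715 in the library with most. The gap was widest for Eomes, where the median of the other 13 libraries, 26.8 CPM, was 91.5 times the value of animal 425.

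Sp8, the interneuron factor, had a cortex median of 4.90 RPKM. Its primiparous values were 2.58 (413), 15.7 (414), 32.9 (415), 31.1 (418), 24.0 (421), 2.58 (425), 27.1 (427) and 19.1 (4493) CPM. Its virgin values were 5.19 (405), 22.6 (409), 23.8 (4486), 13.4 (4487), 30.9 (4488), 18.2 (4489), 22.0 (4490) and 29.8 (4491) CPM. Sp8 kept the largest share in the low libraries of animals 413 and 425, at 10.8% of the median of the other 13, and it had 21.8% in animal 405. The 13 other libraries spanned 13.4 to 32.9 CPM of Sp8, a range that none of the 3 low libraries entered.

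**Figure D1:**
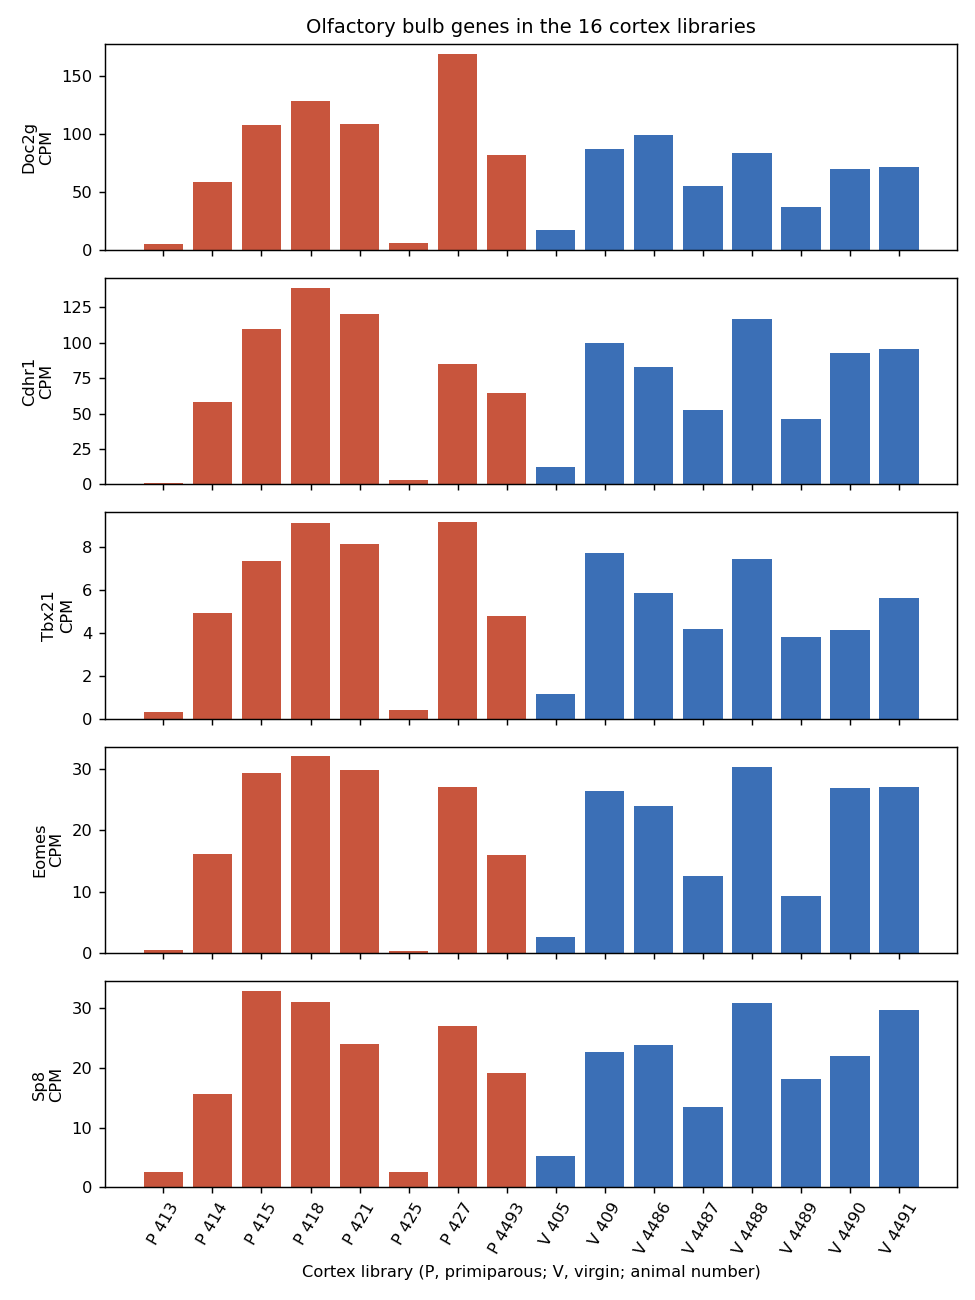
CPM of Doc2g, Cdhr1, Tbx21, Eomes and Sp8 in each of the 16 cortex libraries (bars, 1 animal each; red, primiparous; blue, virgin; linear axes that start at 0). Animals 413, 425 and 405 have the 3 lowest bars in every panel.

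The 5 genes lie on 5 chromosomes of the mm10 build (GENCODE M21 spans). Doc2g (Entrez 60425) is at chr19:4003313-4007005 on the plus strand and overlaps Gm49405, an annotated coding gene on the same strand. Cdhr1 (170677) is at chr14:37077857-37098347 on the minus strand, and Tbx21 (57765) at chr11:97098071-97115331 on the minus strand. Eomes (13813) is at chr9:118478212-118486132 on the plus strand and overlaps the antisense gene Gm33460, and Sp8 (320145) is at chr12:118846329-118852576 on the plus strand. The strand setting of the counting was not stated, so reads of Eomes and its antisense partner may not be fully separated. Gm49405 lies on the strand of Doc2g, so reads of that pair may not be fully separated under any strand setting.

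The 250 bases before the RefSeq start (GRCm38.p6) of each of the 5 genes were searched on both strands. The patterns sought were the T-box motif GGTGTG, the core AGGTGTGA and the GC box GGGCGG. Below, capitals mark that motif or a GC box, each sequence runs 5′ to 3′ on the strand of its gene, and Sp8 is shown for the first of its 3 listed starts.
Cdhr1, chr14:37098348-37098597, minus strand: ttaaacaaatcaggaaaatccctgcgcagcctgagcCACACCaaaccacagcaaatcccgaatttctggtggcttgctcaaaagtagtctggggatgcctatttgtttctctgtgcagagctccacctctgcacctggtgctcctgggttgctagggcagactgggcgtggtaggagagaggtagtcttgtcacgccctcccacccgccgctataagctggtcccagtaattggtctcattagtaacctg
Tbx21, chr11:97115332-97115581, minus strand: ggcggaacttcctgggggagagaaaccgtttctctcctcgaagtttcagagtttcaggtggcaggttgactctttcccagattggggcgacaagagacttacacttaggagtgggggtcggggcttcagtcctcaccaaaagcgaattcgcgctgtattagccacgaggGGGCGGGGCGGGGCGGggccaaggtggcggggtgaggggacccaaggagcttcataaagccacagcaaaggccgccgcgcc
Eomes, chr9:118477939-118478188, plus strand: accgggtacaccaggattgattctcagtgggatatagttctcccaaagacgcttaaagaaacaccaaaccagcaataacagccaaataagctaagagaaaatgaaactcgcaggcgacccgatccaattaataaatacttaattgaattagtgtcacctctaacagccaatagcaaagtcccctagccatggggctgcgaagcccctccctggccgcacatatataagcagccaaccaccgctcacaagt
Sp8, chr12:118846079-118846328, plus strand: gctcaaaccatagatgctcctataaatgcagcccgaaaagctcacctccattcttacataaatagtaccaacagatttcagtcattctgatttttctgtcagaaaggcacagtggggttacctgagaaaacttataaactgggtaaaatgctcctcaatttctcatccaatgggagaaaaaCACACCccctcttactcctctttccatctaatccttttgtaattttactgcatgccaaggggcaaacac
The T-box motif, in its reverse complement CACACC, was present once each before Doc2g (237 bases before the start), Cdhr1 (214 bases) and Sp8 (69 bases), and not before Tbx21 or Eomes. Of 32851 RefSeq promoters, 16.3% hold it in the same window. The core was in 1.12% of promoters and in none of the windows of the 5 genes. Overlapping copies of the GC box, 3 in all, lay 81, 76 and 71 bases before the start of Tbx21, and 32.7% of promoters hold at least 1 copy. The second listed start of Sp8 has 1 GC box, 14 bases before it, and neither the second nor the third has the T-box motif. The window of Doc2g overlaps an exon of Gm49405 and is not printed. A match of letters is a description and not a binding site.

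On the log2(CPM + 1) scale, the cortex mean minus the mean of the highest other region placed Doc2g at place 4 of 13016 genes, at 2.70. Above it stood Ms4a15 (3.25), S100a5 (3.18) and Shisa3 (2.74), and below it Omp (2.62). S100a5 and Omp mark olfactory sensory neurons. Tbx21 was at place 10 (2.05), Sp8 at 14 (1.92) and Cdhr1 at 29 (1.45), with amygdala as its highest other region. Next after Tbx21 stood Lamp5 at place 11, which marks neurons of the cerebral cortex itself. Eomes was at place 10309, with a difference of -0.87 from cerebellum. Against the mean of the other 4 regions the difference for Eomes was 2.27. Eomes without the 3 low libraries had a difference of -0.20 and place 4178. Doc2g was then at place 4 (3.30), Tbx21 at 6 (2.46), Sp8 at 7 (2.39) and Cdhr1 at 9 (2.22). With a pseudocount of 4 in place of 1, all 16 libraries gave Doc2g place 1, Sp8 place 11, Cdhr1 place 16, Tbx21 place 40 and Eomes place 9366. The library values behind these places are those that chose the genes.

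Spread within a state over the 16 cortex libraries was 1.47 for Doc2g, 1.79 for Cdhr1, 0.98 for Tbx21, 1.59 for Eomes and 1.10 for Sp8 (SD of log2(CPM + 1)). Among 13016 genes in cortex, Cdhr1 was at place 4 and Eomes at place 5 from the most variable. Doc2g was at place 9, Sp8 at 26 and Tbx21 at 31. Without the 3 low libraries the SDs were 0.50, 0.50, 0.36, 0.55 and 0.40 in the same order of genes. In the other 4 regions the SD was 0.24 to 0.41 for Doc2g, 0.18 to 0.41 for Cdhr1, 0.11 to 0.27 for Tbx21, 0.27 to 0.57 for Eomes and 0.08 to 0.40 for Sp8, below that of all 16 cortex libraries for each gene. Against the 13 cortex libraries, Eomes in hippocampus, at 0.57 (place 79 of 13016), was above and Sp8 in amygdala, at 0.40, was level. Eomes in cerebellum had an SD of 0.43 (place 177). The log2(CPM + 1) scale compresses spread near 0, where Tbx21 outside cortex and Sp8 in cerebellum lie. Against 500 genes of like mean level, the SDs of the 5 genes in cortex were above 99.6% to 100%. Outside cortex Eomes in cerebellum was above 99.8%, Cdhr1 in amygdala above 97% and Eomes in hippocampus above 94.2%. The rest outside cortex were above 5.2% to 81%.

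The 16 libraries fell into a low set of 3 and a set of 13, so correlations are given within the 13 only, as descriptions over libraries of 1 sequencing pool. Over the 10 pairs of genes, Pearson's r had a median of 0.79 and ran from 0.67 (Doc2g with Sp8) to 0.96 (Cdhr1 with Eomes). Spearman's rho ran from 0.69 to 0.95 with a median of 0.74. Doc2g and Tbx21 had an r of 0.87 and a rho of 0.92. In the other regions the median r over the 10 pairs was 0.09 in amygdala (-0.28 to 0.36), 0.13 in hippocampus (-0.46 to 0.44), -0.04 in hypothalamus (-0.53 to 0.60) and 0.08 in cerebellum (-0.53 to 0.50). The highest of these were Tbx21 with Eomes in hypothalamus and Tbx21 with Sp8 in cerebellum, pairs of genes with few reads there.

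**Figure D2:**
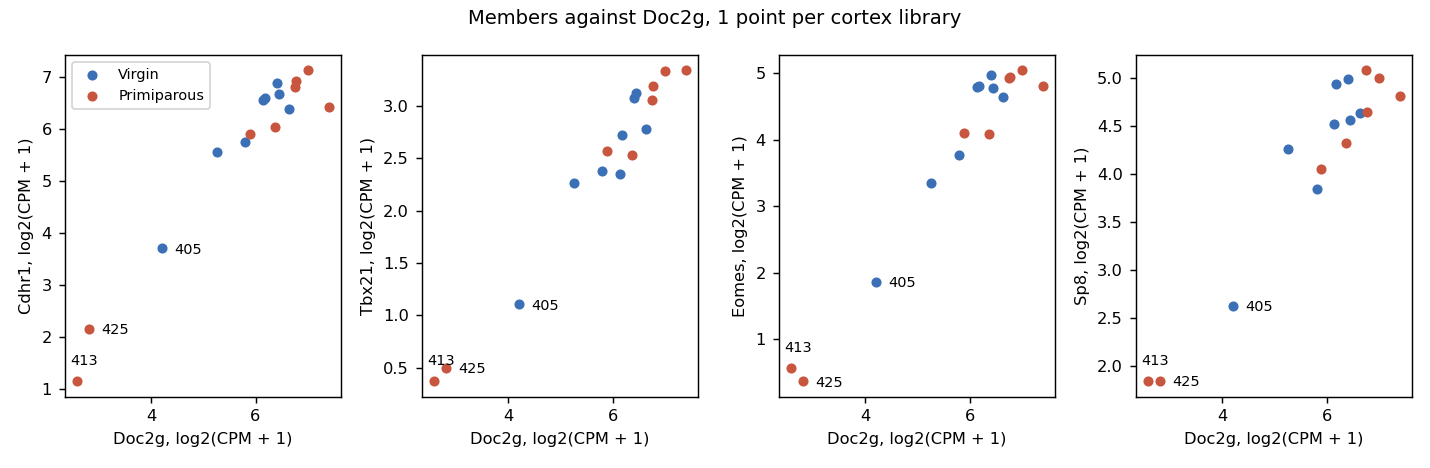
Level of Cdhr1, Tbx21, Eomes and Sp8 against that of Doc2g, both as log2(CPM + 1), with 1 point per cortex library (red, primiparous; blue, virgin). Animals 413, 425 and 405 lie apart at the lower left of each panel, and the other 13 points still rise together.

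Ratios between the genes differed in how far the 3 low libraries kept to the rest. Tbx21 over Doc2g, in CPM, was 0.0542 to 0.102 in the 13 libraries and 0.0588, 0.0693 and 0.0662 in animals 413, 425 and 405, all inside that range. Eomes over Doc2g was 0.161 to 0.385 in the 13 libraries and 0.0980, 0.0495 and 0.152 in the same 3 animals. Sp8 over Doc2g was 0.160 to 0.490 in the 13 libraries, a range that held animals 425 (0.436) and 405 (0.298) but not 413 (0.520). Cdhr1 over Doc2g was 0.503 to 1.39 in the 13 libraries, with animals 425 (0.584) and 405 (0.689) inside that range and 413 (0.245) below it. In animals 413 and 425 Doc2g, at 4.96 and 5.93 CPM, was within the range of the other regions, 2.69 to 9.83 CPM.

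In other regions, libraries of animals 413, 425 and 405 lay at various places among the rest. For Cdhr1 in amygdala they had 18.9, 23.6 and 24.1 CPM, above 9, 12 and 13 of the 15 libraries. Doc2g in cerebellum was 7.14, 9.80 and 8.14 CPM in the same animals, with 4, 13 and 8 libraries below. Sp8 in hypothalamus was 4.89, 5.15 and 3.99 CPM, with 14, 15 and 9 of 16 libraries below. Low values included Cdhr1 in the hypothalamus of animal 413, the lowest of 16 at 1.32 CPM, and Eomes, with 0 reads in the hypothalamus of animals 413 and 425. For Sp8 in hippocampus animals 413, 425 and 405 were all low, at 1.56, 1.58 and 1.53 CPM, with 3, 4 and 2 of 15 libraries below.

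Outside cortex, the 5 genes had different orders of regions. Among amygdala, hippocampus, hypothalamus and cerebellum, 30 pairs of levels were compared within animals on log2(CPM + 1), by exact two-sided sign-flip permutation tests adjusted over the 30. In 22 of the 30 pairs the adjusted p was under 0.05.

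Doc2g was highest in cerebellum, at 7.68 ± 1.49 CPM (SD, n = 15), followed by amygdala at 5.52 ± 1.81 (n = 15), hypothalamus at 4.71 ± 1.91 (n = 16) and hippocampus at 3.86 ± 0.805 (n = 15). Cerebellum exceeded hippocampus by 0.83 on the log2 scale, in 15 of 15 animals (exact adjusted p = 0.000204, the smallest p these animals allow before adjustment being 6.1e-05). Amygdala and hypothalamus, neighbours in this order, had an exact adjusted p of 0.263, and hypothalamus and hippocampus one of 0.229. Every library outside cortex held at least 35 reads of Doc2g.

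Cdhr1 fell stepwise from amygdala (18.1 ± 5.13 CPM, SD, n = 15) to hippocampus (8.08 ± 1.07, n = 15), hypothalamus (4.17 ± 1.13, n = 16) and cerebellum (0.402 ± 0.246, n = 15). All 6 pairs of regions differed at an exact adjusted p of 0.000523 or less. Amygdala exceeded cerebellum by 3.77 on the log2 scale in 14 of 14 animals, and cerebellum libraries held 2 to 17 reads. The amygdala range, 9.71 to 29.1 CPM, lay above the low cortex libraries of animals 413 and 425, and animal 405 in cortex, at 11.98 CPM, lay inside it.

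Eomes differed from the other 4 genes in its level in cerebellum, which was 26.8 ± 8.05 CPM (SD, n = 15) beside 19.4 ± 11.3 in cortex (n = 16). By medians the order was the opposite, 23.9 CPM in cerebellum and 25.2 in cortex, and without the 3 low libraries the cortex mean was 23.6 ± 7.49 CPM (n = 13). In the cerebellum Eomes is known as a marker of unipolar brush cells, excitatory interneurons of the granular layer. Cerebellum libraries ran from 15.5 to 42.7 CPM with no library near 0, and they exceeded hippocampus by 3.81 on the log2 scale in 15 of 15 animals (exact adjusted p = 0.000204). Hippocampus had 1.08 ± 1.01 CPM (n = 15), amygdala 0.311 ± 0.254 (n = 15) and hypothalamus 0.297 ± 0.340 (n = 16), and the exact adjusted p was 0.775 between amygdala and hypothalamus. The highest hippocampus library, animal 413 at 3.90 CPM, was also the highest of 15 in the summed level of other unipolar brush cell markers, 210 CPM against 117 to 163 CPM in the rest. Animal 421, next in Eomes at 2.5 CPM, had 12 libraries below it in that sum. Animal 4487, next in the sum at 163 CPM, had 1.09 CPM of Eomes, with 9 libraries below. The part of unipolar brush cell RNA in the hippocampal Eomes level was not tested.

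Sp8 was highest outside cortex in hypothalamus (3.70 ± 0.864 CPM, SD, n = 16), then amygdala (2.63 ± 0.909, n = 15) and hippocampus (2.04 ± 0.505, n = 15). Hypothalamus exceeded hippocampus by 0.62 on the log2 scale in 15 of 15 animals (exact adjusted p = 0.000204). Amygdala and hippocampus had an exact adjusted p of 0.0844. In cerebellum 10 of 15 libraries had 0 reads of Sp8 and the highest had 4, and 3 reads is the floor that a count of 0 allows in each.

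Tbx21 stayed at or below 1.08 CPM in each of the 61 libraries outside cortex. Means were 0.322 ± 0.314 CPM in hypothalamus (SD, n = 16), 0.227 ± 0.163 in hippocampus (n = 15), 0.152 ± 0.194 in amygdala (n = 15) and 0.0767 ± 0.0849 in cerebellum (n = 15). Between 0 and 21 reads supported each value, and 15 libraries had none. Cerebellum, with 0 to 5 reads per library and 6 of 15 libraries at 0, was lower than hippocampus and hypothalamus (exact adjusted p = 0.00160 and 0.00237). The other 4 pairs had an exact adjusted p of 0.106 or more. T-box factors of this pair are also known from natural killer and T cells. Ncr1, Cd3e, Nkg7 and Klrb1c of that list had a cortex median of 0 CPM, and the list summed to at most 0.408 CPM in any cortex library.

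**Figure D3:**
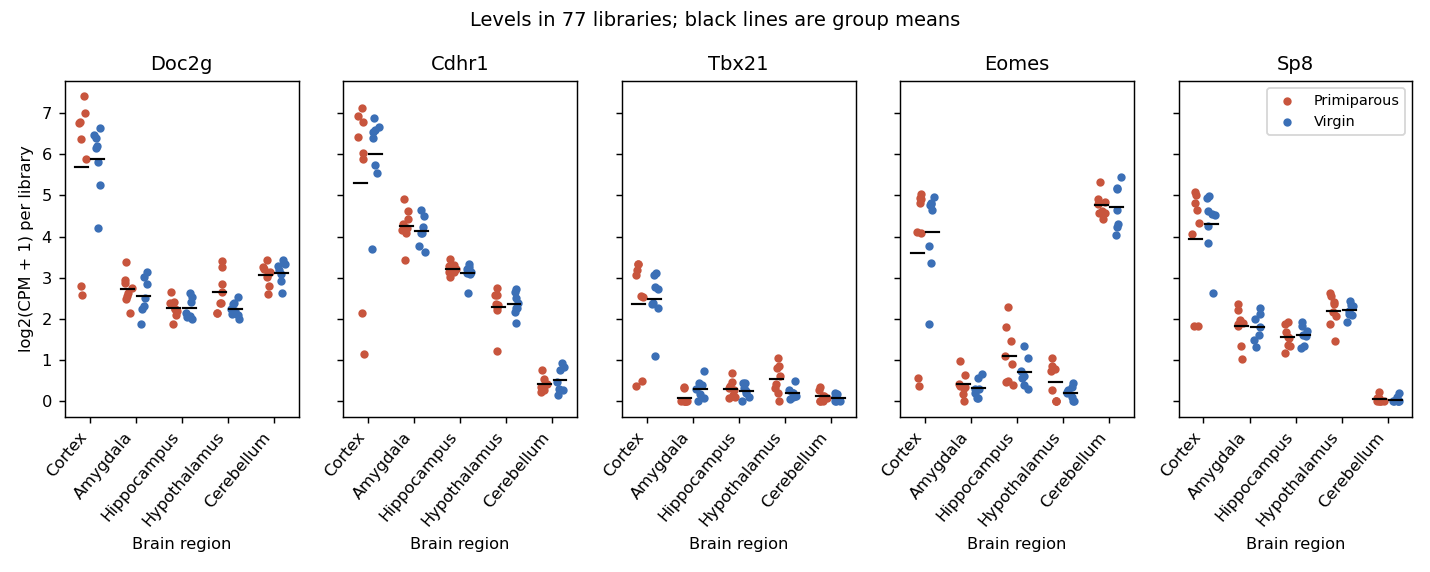
Levels of the 5 genes as log2(CPM + 1) in 77 libraries by region (points, 1 library each; red, primiparous; blue, virgin; black lines, group means). Cortex is high and scattered for all 5, Cdhr1 steps down from amygdala to cerebellum, and Eomes has medians of 23.9 CPM in cerebellum and 25.2 CPM in cortex.

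The question of the study was whether primiparous and virgin females differ. It was asked for each region with edgeR's quasi-likelihood test (Benjamini-Hochberg adjustment over 13016 genes, adjusted p under 0.05). In cortex none of the 5 genes was called, and none of all genes tested was (0%), although 1277 genes had an unadjusted p under 0.05 and DESeq2 called 4. Doc2g had a log2 fold change of 0.37 (SE 0.57), Cdhr1 of -0.03 (0.66), Tbx21 of 0.14 (0.48), Eomes of -0.07 (0.65) and Sp8 of -0.10 (0.45). Adjusted p-values by edgeR ran from 0.789 to 0.990. None of the 5 had an unadjusted p under 0.05, and DESeq2 and limma-voom called none, DESeq2 giving no adjusted p for 1. Primiparous and virgin ranges overlapped for each gene. The SEs of 0.45 to 0.66 include the spread that the 3 low libraries bring. Without them, edgeR called none of the 5 genes and none of all genes (0%, with 2941 at an unadjusted p under 0.05), and 1 of the 5 had an unadjusted p under 0.05: Doc2g, with a log2 fold change of 0.63 and an adjusted p of 0.152.

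In hypothalamus, where 22.6% of all genes were called, Tbx21 was the only one of the 5 called. It had a log2 fold change of 1.63 (SE 0.573, edgeR adjusted p = 0.0428). Primiparous animals had 0.753 (413), 0.342 (414), 0.809 (415), 1.08 (418), 0.523 (421), 0 (425), 0.160 (427) and 0.256 (4493) CPM. Virgin animals had 0.102 (405), 0.0428 (409), 0.207 (4486), 0.0946 (4487), 0.155 (4488), 0.400 (4489), 0.154 (4490) and 0.0831 (4491) CPM. With the animal number series as covariate, which largely coincides with state, the adjusted p was 0.314 and 3 of all genes were called in place of 2939. Tbx21 was among the genes tested only through its cortex levels, no hypothalamus library reaching the 5 CPM of the filter. The groups overlapped, the values rest on 0 to 16 reads, and 1 called gene of 5 is close to the share among all genes. Under 21 alternatives the adjusted p ran from 0.0261 to 0.314, and 5 kept the call. limma-voom gave 0.0887 (19.8% of all genes called), DESeq2 gave no adjusted p, and edgeR lost the call when any 1 library was left out other than those of animals 425, 427, 4493 and 4489.

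Doc2g in hypothalamus was at 5.63 ± 2.35 CPM in primiparous animals and 3.79 ± 0.590 in virgin animals (SD, n = 8 each), a log2 fold change of 0.55 (SE 0.21, edgeR adjusted p = 0.0566). The 8 primiparous values were 4.24 (413), 5.26 (414), 3.44 (415), 9.61 (418), 4.26 (421), 6.16 (425), 3.44 (427) and 8.64 (4493) CPM. The 8 virgin values spanned 3.03 to 4.84 CPM with a median of 3.67. Animals 418 and 4493 were furthest above the virgin range. DESeq2 called it (adjusted p = 0.0403, 25.6% of all genes called), as did edgeR without the library of animal 413, 415, 427 or 4486, and over 22 alternatives the adjusted p ran from 0.0316 to 0.324. Eomes had a log2 fold change of 1.51 (SE 0.74, edgeR adjusted p = 0.138) on 0 to 21 reads, and Cdhr1 and Sp8 had -0.06 and -0.02.

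None of the 5 genes was called by edgeR in amygdala (0% of all genes called), hippocampus (0%) or cerebellum (0.707%), and none had an unadjusted p under 0.05 there. At that unadjusted threshold stood 1544 genes in amygdala and 961 in hippocampus, and DESeq2 called 95 and 12 genes. limma-voom called none of the 5 in these regions. DESeq2 called none either, with no adjusted p for all 5 in amygdala and for 3 in cerebellum, and 1 of the 5 had an unadjusted p under 0.05 in hippocampus by DESeq2. Tbx21 in amygdala had a log2 fold change of -1.92 (SE 1.03, edgeR adjusted p = 0.467), with 0 reads in 6 of 8 primiparous libraries and in 1 of 7 virgin libraries. Eomes in cerebellum had 26.6 ± 5.84 CPM in primiparous animals (n = 8) and 26.9 ± 10.5 in virgin animals (n = 7), a log2 fold change of 0.01 (SE 0.22).

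**Figure D4:**
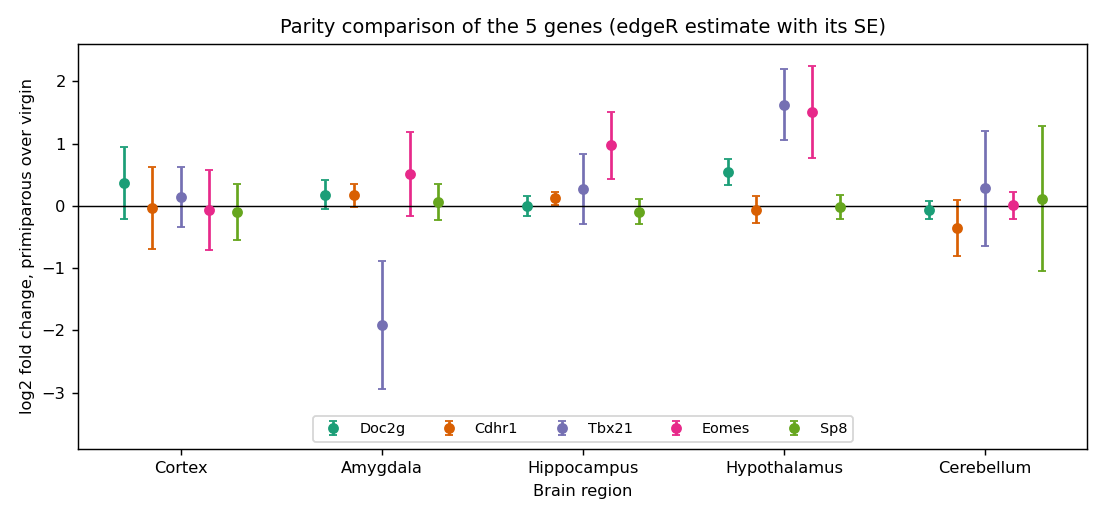
log2 fold change of primiparous over virgin for the 5 genes in each region (points, edgeR estimate; bars, its SE). Tbx21 in hypothalamus, at 1.63, is the only estimate called, and the cortex estimates lie between -0.10 and 0.37.

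Whether the parity effect in cortex differed from that in another region was tested as an interaction in edgeR. None of the 5 genes was called against amygdala (1.11% of all genes called), hippocampus (0%), hypothalamus (0%) or cerebellum (0.00768%), and none had an unadjusted p under 0.05. DESeq2 called none of the 5 in any of the 4, with 1 unadjusted p under 0.05, against amygdala, and no adjusted p for 1 gene there. Over all genes, edgeR called 145 against amygdala and 1 against cerebellum, and DESeq2 called 449 and 22. The regions come from the same animals, and with the animal as block edgeR called 0 against amygdala and 1 against cerebellum. Leaving out 1 cortex library moved the 145 to between 32 (animal 421) and 861 (animal 413). Neither tool called a gene against hippocampus or hypothalamus (0 and 0), where 1691 and 336 genes had an unadjusted p under 0.05 in edgeR. For Doc2g the interaction ran from -0.19 (SE 0.71, hypothalamus) to 0.44 (SE 0.67, cerebellum). For Tbx21 it was 2.10 (SE 1.28) against amygdala and -1.50 (SE 0.91) against hypothalamus, with edgeR adjusted p-values of 0.378 and 1. With the 3 low libraries left out, edgeR called 973 genes against amygdala (7.48%), 20 against cerebellum (0.154%) and 0 against each of the other two, and again none of the 5. At an unadjusted p under 0.05 then stood Tbx21 against amygdala (2.35, adjusted p = 0.0618), Tbx21 against hypothalamus (-1.23, adjusted p = 1.00) and Doc2g against cerebellum (0.70, adjusted p = 0.158).

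To see what varied with these genes, each other gene was fitted on Doc2g (log2(CPM + 1)) and state over the 16 cortex libraries with edgeR. All counts come from the same libraries as Doc2g, so shared tissue, depth and sequencing enter both sides. Doc2g was chosen for its spread over these libraries, and the marker lists with earlier results of these data known. Each p-value over all 16 draws on the gap between the 3 low libraries and the other 13. It is not independent support for a list. Of 13015 genes, 292 rose with Doc2g (2.24%) and 193 fell (1.48%). Without the 3 low libraries 25 rose (0.192%) and 1 fell (0.00768%), and 21 of these 26 were among the 485 called with all 16. Without the libraries of animals 413 and 425, 53 were called. Leaving out a single library gave 141 without animal 413, 230 without animal 425, 302 without animal 421 and 741 without animal 405. The slopes of Cdhr1 (1.26), Tbx21 (0.98), Eomes (1.33) and Sp8 (0.79), each in log2 units per log2 unit of Doc2g, are descriptions, since these genes were chosen for moving with it. Over the 13 other libraries they were 0.77 for Cdhr1, 0.68 for Tbx21, 0.93 for Eomes and 0.55 for Sp8.

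Among the other projection neuron markers, 5 of 10 rose with Doc2g and none fell, with a median slope of 0.50. Shisa3 (slope 1.05, SE 0.08, edgeR adjusted p = 4.16e-08) went from 0.535 CPM in animal 413 to 21.2 in the highest library. Lbhd2 (1.02) and Barhl2 (1.11), a homeobox factor, rose with it, as did Nmb, the neuropeptide neuromedin B (0.70), and Ntng1 (0.14). Reln, the extracellular matrix protein reelin, had a slope of 0.15 (edgeR adjusted p = 0.0751), and Slc17a6, a vesicular glutamate transporter, one of -0.06. Without the 3 low libraries 2 of the 10 were called, Lbhd2 and Nmb, and the median slope was again 0.50.

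Of the interneuron list, 14 of 17 other genes rose with Doc2g and none fell, with a median slope of 0.41. Th, tyrosine hydroxylase of the dopaminergic periglomerular cells, had 1.76 to 59.2 CPM in cortex and a slope of 1.12 (SE 0.05, edgeR adjusted p = 4.81e-11). Animals 413, 425 and 405 had 2.24, 1.76 and 4.15 CPM of Th, and the lowest of the other 13 had 14.4. Calb2, the calcium-binding protein calretinin of granule and periglomerular cells, had 6.95, 10.3 and 18.5 CPM in these animals and 36.7 to 129 in the others, with a slope of 0.83 (SE 0.03, adjusted p = 2.36e-12).

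Homeobox and zinc finger factors of the interneuron lineage had smaller slopes, 0.41 for Dlx1, 0.42 for Dlx2, 0.41 for Dlx5, 0.43 for Dlx6, 0.45 for Sp9, 0.32 for Tshz1 and 0.32 for Pax6. Gad1, which makes GABA in all inhibitory neurons, had 0.15, and Etv1 had -0.01 (edgeR adjusted p = 0.915). Without the 3 low libraries, Th, Calb2 and Trh were called, 3 of 17, and the median slope was 0.35.

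Genes of neighbouring olfactory structures were mixed. Omp, olfactory marker protein of sensory neurons, had 0.486, 0.587 and 0.691 CPM in animals 413, 425 and 405 and 1.37 to 71.6 in the other 13, with a slope of 1.76 (SE 0.14, edgeR adjusted p = 3.44e-07). It was the only 1 of 3 tested sensory axon genes that rose, and Rtp1 had -0.05 and Ano2 0.22. Of the ensheathing glia list, Fabp7 (0.57) and Frzb (0.20) rose and the other 3 tested had slopes of 0.02 to 0.05. Dcx (0.21), Cd24a (0.23) and Dlx6os1 (0.20) rose among 6 tested neuroblast genes. Without the 3 low libraries Omp and Fabp7 remained called, with slopes of 2.03 and 0.91, and no neuroblast gene was. Genes under the filter on low values were not among those tested, such as Stoml3 of the sensory axon list. It had 0.194, 0.176 and 0 CPM in animals 413, 425 and 405 and 0.159 to 6.10 CPM in the others, so the ranges overlapped. With a filter of 10 reads in 5 libraries, 2 of 5 sensory axon, 3 of 6 ensheathing glia and 4 of 7 neuroblast genes rose.

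Markers of other tissue that a cortex dissection could hold were mostly not called. None of 9 tested neocortical excitatory genes rose and 1 fell, Neurod6, with a slope of -0.10 (edgeR adjusted p = 0.0367). All 9 slopes were negative, from -0.12 to -0.05, and 7 of the 9 had an unadjusted p under 0.05. So did 3417 of the 13015 genes fitted. None of the 9 was called without the 3 low libraries (0) or with no state in the model (0), and leaving out single libraries gave 0 to 3. Their summed level was 2702, 2713 and 2653 CPM in animals 413, 425 and 405 and 2133 to 2681 CPM in the other 13. This list had a median slope of -0.08, and -0.17 without the 3 low libraries. Oligodendrocyte, astrocyte, hippocampal and meningeal lists had 0 called of 6, 5, 6 and 5 tested genes in edgeR. At an unadjusted p under 0.05 stood 2, 4, 3 and 2 of them, beside the 3417 of 13015 over all genes. In the striatal list 1 of 10 was called, Penk (0.28), and Drd1 and Drd2, its dopamine receptors, had -0.08 and 0.01. The thalamic and unipolar brush cell lists each had 1 called, Calb2, which stands on the interneuron list too. Aqp1, a water channel on the choroid plexus list, had a slope of 1.21, whereas Ttr, the abundant transthyretin of that tissue, had 0.13 (adjusted p = 0.613). In the striatal and choroid plexus lists 0 genes each were called without the 3 low libraries, where Penk had a slope of 0.34 and Aqp1 one of 1.25 (adjusted p = 0.320 and 0.0634).

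**Figure D5:**
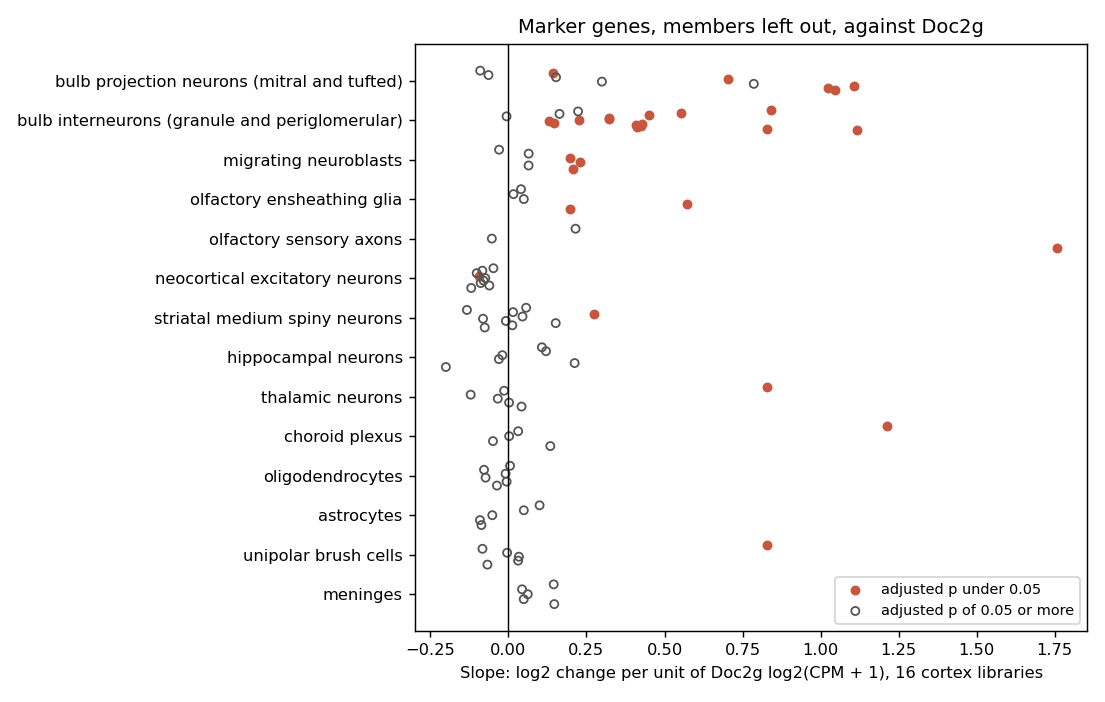
Slope on Doc2g over the 16 cortex libraries (log2 change per unit of Doc2g log2(CPM + 1)) for each tested gene of 14 marker lists, the 5 chosen genes left out (filled, adjusted p under 0.05; open, not called). Filled points sit mainly in the projection neuron list, 5 of 10, and the interneuron list, 14 of 17.

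The largest rising slopes of all genes were those of S100a5 (1.98), Omp (1.76), Lhx1os (1.48), Ms4a15 (1.44), Eomes, Cdhr1, Scgn (1.26), Aqp1, Cngb1 (1.21), Gal (1.18), Th and Barhl2. S100a5, a calcium-binding protein of sensory neurons, had 0.0486, 0.0587 and 0.576 CPM in animals 413, 425 and 405 and 1.88 to 39.3 CPM in the other 13. Scgn, the calcium-binding secretagogin of bulb interneurons, had at most 0.922 CPM in the 3 and 6.49 to 21.2 CPM in the 13. Lhx1os and Cngb1 had at most 0.195 and 0.571 CPM in any cortex library. The steepest falling slopes were much smaller, from -0.37 for Gprin3 to -0.21 for Vwa5b1, with mt-Nd4l, Syt14 and Prex2 between them. Without the 3 low libraries S100a5, Omp, Ms4a15, Scgn and Th kept an adjusted p under 0.05, with slopes of 1.85, 2.03, 0.87, 0.80 and 1.11. None of the named falling genes did, although their slopes were steeper, from -0.32 for Syt14 and -0.47 for Gprin3 to -0.59 for mt-Nd4l.

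Across all 77 libraries the genes most like Doc2g in log2(CPM + 1), by Pearson's r, were Ms4a15 (0.96), Pcp4l1 (0.95), Shisa3 (0.94) and S100a5 (0.94). Tbx21 was at place 5 (0.93), followed by Pcbp3 (0.90), Omp (0.88), Otop2 (0.88), Nmb (0.86) and Ppm1j (0.86). Sp8 was at place 68 (0.72), Eomes at 153 (0.67) and Cdhr1 at 191 (0.65). Tbx21 was again at place 5 (0.93) without the 3 low libraries, and Sp8, Eomes and Cdhr1 were at places 108 (0.72), 192 (0.67) and 242 (0.65) over 74 libraries. Ms4a15 and S100a5 had medians of 14.9 and 14.3 CPM in cortex and 0 in amygdala, hippocampus and hypothalamus. Pcp4l1 had 217 CPM in cortex and 51.8 to 81.9 CPM elsewhere. The points of this comparison share region and pool, and r is a description of these libraries.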

How the data were processed

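Polyadenylated RNA of single animals was sequenced by the authors as 100-base reads, aligned with HISAT2 to mm10 and counted with featureCounts (Rsubread, inbuilt annotation, reads that map once). The strand setting is not given in the sources used here. What the authors deposited are raw counts, not normalized, of 27179 genes in 77 libraries, after they had removed 3 libraries as outliers. The deposited log2 table, made by the authors, was checked only: its values equal log2(count / size factor + 4) within 5e-05, and it is not on the CPM scale. Symbols came from the deposited table and from Entrez identifiers in GENCODE M21.

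The 5 genes and the marker lists were chosen with earlier results of these data known. CPM are counts over the library total, and levels are log2(CPM + 1). Genes that reached 5 CPM in 8 or more libraries were tested with edgeR 4.0.16 (R 4.3.3; TMM, robust quasi-likelihood F-test), BH adjustment over all genes and a threshold of 0.05. Alternatives used limma 3.58.1 (voom) and DESeq2 1.42.0, other filters, scalings and pseudocounts, and libraries left out. The edgeR fits were tested on simulated data with the same dispersion for all genes and independent noise. That cannot show how far the real calls depend on the low cortex libraries. Floors cover counting error only. p-values measure the spread between animals.

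Named genes are the 5 members, the 12 largest rising and 6 largest falling slopes on Doc2g among those past the threshold (1 falling row has no symbol and is not named), the 5 highest in cortex over other regions with the neighbours of each member in that order (not all of these neighbours are reported here), and the 10 genes most like Doc2g. Regions share animals, which is what pairs the libraries. Deviations of libraries of 1 animal from their group means correlated with a median r of 0.0767 between cortex and amygdala, 0.0898 with hippocampus, 0.0345 with hypothalamus and 0.0186 with cerebellum over the tested genes. Bcl11b, on the neocortical list, was not analysed here.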

Additional observations from a re-analysis of the deposited data

Results flagged for a closer look

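Of 50 groups of a gene, region and state, 4 held a library set apart from the rest of its group by Dixon's criterion, close to the 1 in 20 that chance gives. Cdhr1 in virgin hippocampus was lowest in animal 4487, at 5.21 CPM. Tbx21 in virgin hypothalamus was highest in animal 4489, at 0.400 CPM, on 9 reads. Eomes in primiparous cerebellum was highest in animal 418, at 39.1 CPM. Sp8 in primiparous cerebellum was highest in animal 413, at 0.168 CPM, on 4 reads. In primiparous cortex animals 413 and 425 lie close together, where this criterion cannot set either apart. Animal 405 was the lowest virgin cortex library for each of the 5 genes and was not flagged for any. Its gap to the next library was 0.237 (Eomes) to 0.401 (Tbx21) of the range of its group.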

How the results depend on the processing

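Over 101 results, 1365 of 1435 alternative values kept their side of the threshold, stayed within the spread or, for counts, near the main count. No called value reversed, and values that were not called could change sign. Headline results were the counts of members called, of all slopes called and of region pairs, the cortex differences and the cortex SDs. For these, 226 alternative values stayed the same in this sense, 23 moved and 13 were weaker. In hypothalamus, 1 of the 5 genes was called with edgeR. None was called with limma-voom (0), with a filter of 10 reads in 5 libraries (0), with the animal number series as covariate (0) or in 1 fit of all 10 groups (0), leaving out single libraries gave 0 to 2, and DESeq2 called 1, Doc2g. Over all genes edgeR called 2939, limma-voom 2571, the filter of 10 reads 2588, the series covariate 3, the fit of all 10 groups 2189, single libraries left out 2014 to 4119 and DESeq2 3327. On Doc2g 485 genes were called. With Cdhr1 in its place 211 were called (201 of them among the 485), with no state in the model 300 (all 300 among them), without the 2 libraries farthest from the median of Doc2g 53 (52) and, as chosen after seeing the data, without the 3 low libraries 26 (21). Leaving out single libraries gave 141 to 741. Tbx21 in cortex minus the highest other region was 1.02 with a pseudocount of 4 in place of 2.05. The within-state SD over cortex without the 2 farthest libraries was 0.70 for Doc2g, 0.86 for Cdhr1, 0.55 for Tbx21, 0.87 for Eomes and 0.64 for Sp8, and without the 3 low libraries 0.50, 0.50, 0.36, 0.55 and 0.40. With a pseudocount of 4 it was 0.54 for Tbx21, 1.09 for Eomes and 0.85 for Sp8. Low counts limit Tbx21 outside cortex and Sp8 in cerebellum.

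The animal as replicate block in the interaction fits called 0 of the 5 genes against each of the 4 regions, as without it. Tbx21 against hypothalamus had an unadjusted p of 0.0467 under the block (edgeR adjusted p = 1) and 0.108 without it. For Doc2g in cortex minus amygdala the block gave -0.19 where the fit without it gave 0.19, neither called. Over all genes, the block took the calls against amygdala from 145 to 0.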
